A study of Mus musculus with 6 samples.

Results

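The vacuolar proton pump and the autophagy machinery were described here across mature mouse dendritic cells and the cells derived from them on spleen stroma. Genes were taken by symbol, those beginning with Atp6v or Atp6ap as proton pump genes and those beginning with Atg and a digit as autophagy genes. This gave 37 of the 15282 genes in the table, 19 of the pump and 18 of autophagy. All cells came from wild type C57/BL6 mice. Bone marrow was grown for 6 days in GM-CSF and IL-4, cytokines that drive dendritic cell growth, and given LPS, a bacterial cell wall product, for 24 hours. Cells bearing CD11c, a dendritic cell integrin, were then taken with magnetic beads, and these cells are called maDC. The second group, diffDC, was maDC kept with spleen stromal cells for a further 9 days, so both groups share the cytokine and LPS treatment. The sources used here do not say how diffDC were separated from the stroma before RNA extraction. Each group had 3 libraries per the labels, and the table gave 1 pooled read number per gene and group.

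The vacuolar proton pump, or V-ATPase, is a rotary machine in the membranes of endosomes, lysosomes and phagosomes. Its cytosolic V1 sector splits ATP and turns a central stalk, and its membrane-embedded Vo sector moves protons through a ring of small subunits past the large subunit a. The acid it makes activates lysosomal proteases, and in dendritic cells and macrophages it sets how fast engulfed protein is broken down. Autophagy wraps cytosol in a double membrane that fuses with the lysosome. It runs from an initiation kinase complex, through a lipid kinase complex and membrane delivery by Atg9 and Atg2, to a ubiquitin-like conjugation of LC3 proteins by Atg7, Atg3 and the Atg12-Atg5-Atg16l1 complex. Atg4 proteases prepare LC3 and later release it.

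The pools held 69190437 reads in maDC and 89836110 in diffDC. Ratios of diffDC over maDC were scaled with TMM factors, and a gene was called, and is said here to have risen or fallen, when its ratio reached 2-fold or more and the exact Clopper-Pearson interval around it (95%) left out a ratio of 1. Such intervals hold counting error alone, and no difference has a replicate check, since pooled values carry no spread between libraries. Among all genes measured, 44.3% were called, 23.3% higher and 20.9% lower. The authors' deposited log2 ratios used another library factor, which raises every log2 ratio by 0.44. With that factor the median log2 ratio of genes averaging 5 CPM or more (reads relative to the pool total) was 0.49, against 0.06 with TMM, and 32.1% of all genes were called higher and 15.7% lower. In bulk pools, more cells of a type and more RNA per cell cannot be told apart.

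Cell type markers moved strongly between the same pools. Dendritic cell markers were abundant in maDC and fell in 11 of 12 cases, with Itgax, which encodes CD11c, at a log2 ratio of -0.21 as the exception. Their summed reads went from 1.40% of the maDC pool to 0.0993% of the diffDC pool. Macrophage markers rose in 12 of 14 cases, Cd163 among them on only 1.92 and 17.06 reads. The exceptions were Gpnmb and Fcgr1, at log2 ratios of 0.30 and -0.28. Macrophage markers together took 0.467% of maDC reads and 2.54% of diffDC reads. Stroma markers rose in 14 of 17 measured cases, and 1 fell, at a log2 ratio of -3.37. The sum of stroma markers went from 0.0143% to 0.248% of reads, with Fbln1 at 0 in maDC and no other listed at 0. Osteoclast markers, listed because Atp6v0d2 and Tcirg1 are prominent in osteoclasts, fell in 4 of 6 measured cases, and their sum went from 0.0309% to 0.00934%. The part of these shifts in the results below was not tested.

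Of the 19 pump genes, 3 rose (Atp6v0a1, Atp6v1g2 and Atp6ap1) and 1 fell (Atp6v0a2), with a median log2 ratio of 0.04. Both shares, 3 and 1 of 19, lie under the 23.3% and 20.9% of all genes called in those directions. Ratios within 1.5-fold of no difference were seen for 13 of the 19, or 68.4%, against 35.6% of all genes and 43.1% of genes of at least 5 CPM. With the authors' library factor 4 pump genes were higher and none lower, against 32.1% and 15.7% of all genes. The median was then 0.48, and 7 ratios changed sign. Within 1.5-fold lay 10 of 19, against 37.3% of genes of at least 5 CPM. Reads of all 19 genes together made up 0.372% of the maDC pool and 0.487% of the diffDC pool, as unscaled shares of pool totals. With TMM the ratio of these sums was 1.15, or 1.55 with the authors' factor. By sector the TMM ratio of sums was 0.931 for V1, 1.26 for Vo and 2.17 for the accessory genes. These sums include Atp6v0a1, which went from 5093 to 50114 reads, and Atp6ap1, which went from 9767 to 41522. Every pump gene had reads in both pools, and 17 of the 19 averaged 5 CPM or more. The pump symbols Atp6v1b1, Atp6v1c2, Atp6v1e2, Atp6v1g3, Atp6v0a4 and Atp6ap1l match the rule but were not among the 15282 genes.

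**Figure D1:**
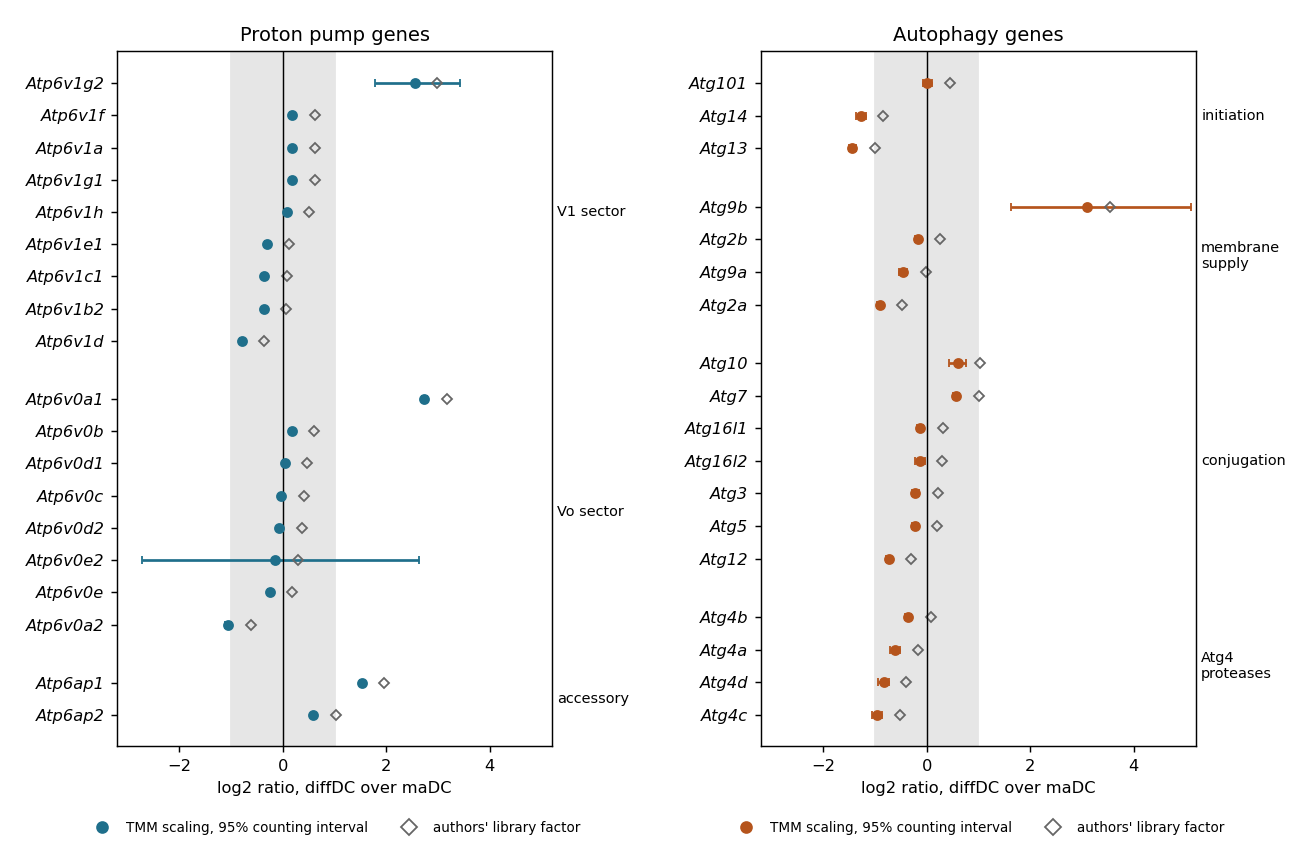
Log2 ratio of diffDC over maDC for each of the 19 pump genes (left) and 18 autophagy genes (right), grouped by role. Filled points are TMM-scaled ratios with bars for the 95% counting interval, open diamonds the ratios with the authors' library factor, and the grey band is under 2-fold. Atp6v0a1 at 2.74 and Atp6ap1 at 1.53 stand right of the band on either scaling. Atg13, Atg14 and Atp6v0a2 leave the band on the left with TMM but not with the authors' factor.

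The largest change among abundant members was in subunit a of the Vo sector, the large membrane protein that forms the proton path and directs the pump to particular membranes. Atp6v0a1 encodes the a1 form, known best from synaptic vesicles and endosomes. It had 5093 reads in maDC and 50114 in diffDC, 6.66-fold higher (interval 6.47 to 6.86), a log2 ratio of 2.74. Atp6v0a2, the a2 form of Golgi and endosomes, had 6056 reads in maDC and 4304 in diffDC, 2.08-fold lower (interval 1.998 to 2.16), a log2 ratio of -1.06. That fall lies at the 2-fold limit, and its log2 ratio was -0.62 with the authors' library factor, which ends the call. The a3 form, found on lysosomes and on the bone-facing membrane of osteoclasts, is encoded by Tcirg1, whose symbol lies outside the rule. It had 69284 reads in maDC and 57814 in diffDC (log2 ratio -0.82) and did not pass.

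Ratios between forms of a subunit do not depend on the scaling of the pools. Atp6v0a1 had 0.841 reads for each read of Atp6v0a2 in maDC and 11.6 in diffDC, a 13.8-fold change (interval 13.2 to 14.5). Against Tcirg1 the reads of Atp6v0a1 went from 0.0735 to 0.867 for each read, an 11.8-fold change (interval 11.4 to 12.2). Levels of different genes were compared as reads per kilobase of gene model, relative to the scaled pool size (RPKM-like units). On that scale Atp6v0a1 went from 19.7 to 131, Atp6v0a2 from 17.5 to 8.40 and Tcirg1 from 394 to 222. The a1 form thus made up 4.57% of the summed level of the a1, a2 and a3 genes in maDC and 36.2% in diffDC. The a3 gene remained the most abundant, at 91.4% and 61.5%, and a2 held 4.05% and 2.32%. The sum of the 3 levels was 431 in maDC and 362 in diffDC (log2 ratio -0.25), which is positive with the authors' factor.

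**Figure D2:**
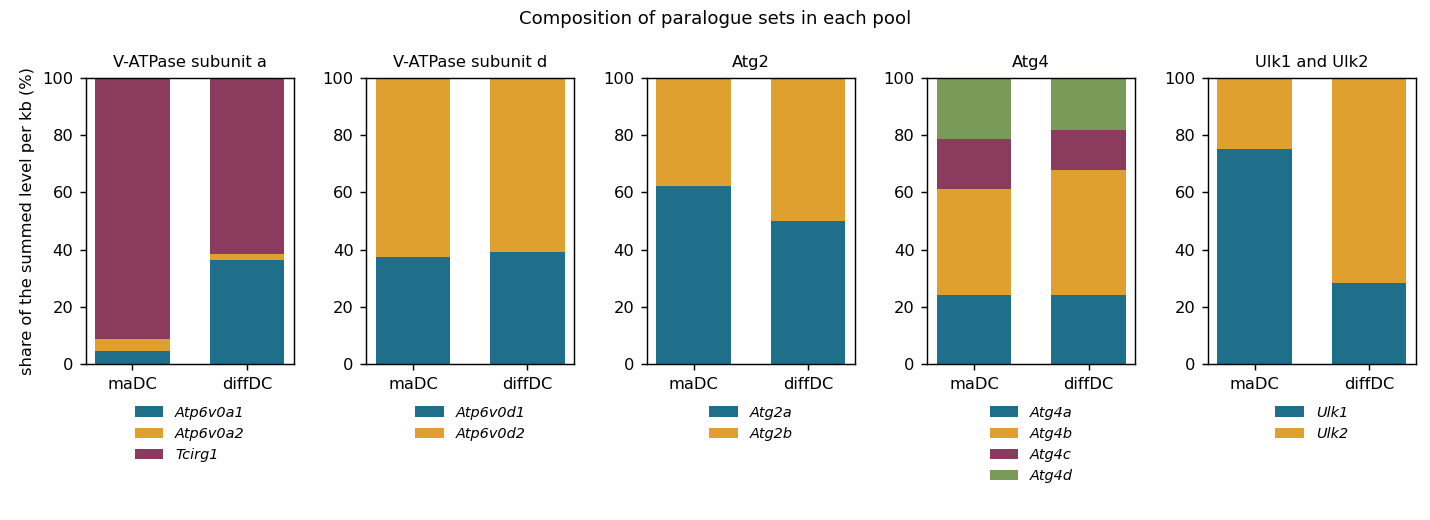
Share of the summed level per kilobase (percent, vertical axis) held by each gene of a set in maDC and diffDC, for V-ATPase subunits a and d, Atg2, Atg4 and the kinases Ulk1 and Ulk2. Atp6v0a1 went from 4.57% to 36.2% of subunit a and Ulk2 from 24.9% to 71.6% of its pair, while the d1 and d2 shares moved by under 2 percentage points.

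Atp6v0a1 lies on the plus strand of chromosome 11, from 101009452 to 101063719 in GRCm38 (GENCODE M21), and is protein coding. The 250 bases before its RefSeq start, chr11:101010148-101010397 on the plus strand of GRCm38.p6, are shown because this member changed most among the abundant ones. They lie inside the GENCODE span of the gene, after its first base. Of these bases 43.6% are G or C.
Atp6v0a1: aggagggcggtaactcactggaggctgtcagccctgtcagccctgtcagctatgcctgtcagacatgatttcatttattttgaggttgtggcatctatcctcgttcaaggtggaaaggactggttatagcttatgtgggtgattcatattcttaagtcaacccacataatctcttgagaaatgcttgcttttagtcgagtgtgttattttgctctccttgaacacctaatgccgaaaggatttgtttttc

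The genes of both accessory proteins had ratios above 1, and 1 of these 2 genes rose, against 23.3% of all genes. Counts by role, here and below, rest on few genes and are given as description alone. Atp6ap1 encodes Ac45, a glycoprotein that sits in the Vo ring and is needed to assemble the pump. It had 9767 reads in maDC and 41522 in diffDC, 2.88-fold higher (interval 2.82 to 2.94), and its level per kilobase moved from rank 13 to rank 4 of the 19 pump genes. Atp6ap2, the prorenin receptor, whose transmembrane part also sits in the Vo ring, had 10452 and 23239 reads. Its ratio of 1.51-fold (interval 1.47 to 1.54) did not pass, but it passed with the authors' factor at a log2 ratio of 1.03. Reads of Atp6ap1 for each read of Atp6ap2 went from 0.934 to 1.79, a 1.91-fold change (interval 1.85 to 1.97) that no scaling alters. Atp6ap1 spans 74297097 to 74304721 on the plus strand of chromosome X, and Atp6ap2 spans 12587801 to 12617049 on the same chromosome and strand.

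With TMM the rest of the Vo sector was nearly level. Atp6v0b and Atp6v0c encode the proteolipids of the proton-carrying ring and had the highest levels per kilobase of all 19 pump genes in both pools, 236 and 219 in maDC and 266 and 214 in diffDC. Their log2 ratios were 0.17 and -0.03, or 0.61 and 0.41 with the authors' factor. Subunit d joins the ring to the central stalk, and its d2 form is known in mice from osteoclasts and macrophages. Atp6v0d1 had 11663 and 17714 reads and Atp6v0d2 had 30253 and 42721, log2 ratios of 0.04 and -0.06. With the authors' factor these ratios were 0.48 and 0.37. Atp6v0d2 held 62.5% of the summed d level in maDC and 60.8% in diffDC, while of 6 measured osteoclast markers 4 fell, Acp5 by 75.8-fold and Ocstamp by 133-fold among them, and Nfatc1 and Mmp9 had log2 ratios of 0.93 and 0.30, Nfatc1 passing as higher with the authors' factor. The small subunit gene Atp6v0e had 9173 and 11391 reads, a log2 ratio of -0.25, or 0.19 with the authors' factor. Its relative Atp6v0e2 had 3 and 4 reads, too few for a ratio.

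In the V1 sector 8 of 9 measured genes did not pass and 1 rose, against 23.3% of all genes called higher and 20.9% lower. Atp6v1a and Atp6v1b2 encode the A and B subunits that form the ATP-splitting head. Atp6v1a had the most reads of any member, 41938 in maDC and 70280 in diffDC (log2 ratio 0.18), and Atp6v1b2 had 36009 and 41194, a log2 ratio of -0.37. Relative to each other, Atp6v1a gained 1.46-fold (interval 1.44 to 1.49). Atp6v1h, whose product links the head to the membrane sector and restrains idle ATP splitting, had 6938 and 10808 reads, a log2 ratio of 0.08. Atp6v1c1 and Atp6v1e1, for the subunit C and a peripheral stalk subunit, had 17689 and 11763 reads in maDC and 20450 and 14057 in diffDC. Their log2 ratios were -0.35 and -0.31, turning to 0.08 and 0.13 with the authors' factor.

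Atp6v1d, for the rotor subunit D, had 10365 reads in maDC and 8863 in diffDC (log2 ratio -0.79), the lowest of the sector. Atp6v1f, for its partner subunit F, had 7231 and 12137 reads, a log2 ratio of 0.18. Neither passed. Relative to Atp6v1d, however, Atp6v1f gained 1.96-fold (interval 1.88 to 2.04) and Atp6v1a 1.96-fold (interval 1.90 to 2.02), whatever the scaling. Atp6v1g1, for the peripheral stalk subunit G, had 11609 and 19400 reads, a log2 ratio of 0.18.

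Atp6v1g2, the form of subunit G known from neurons, was the V1 gene that rose, from 15 to 130 reads, 5.86-fold (interval 3.42 to 10.8). Its level stayed at 0.510% of the summed G level in diffDC, against 0.0989% in maDC. It spans 35233660 to 35238767 on the plus strand of chromosome 17 and overlaps the gene Nfkbil1 on the other strand over 2133 bases. Overlaps here and below are of whole gene spans, introns included, so the counted sequence that is shared may be shorter. The sources used here do not say whether counting used strand, so reads of the overlapping pair could not be assigned with certainty.

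**Figure D3:**
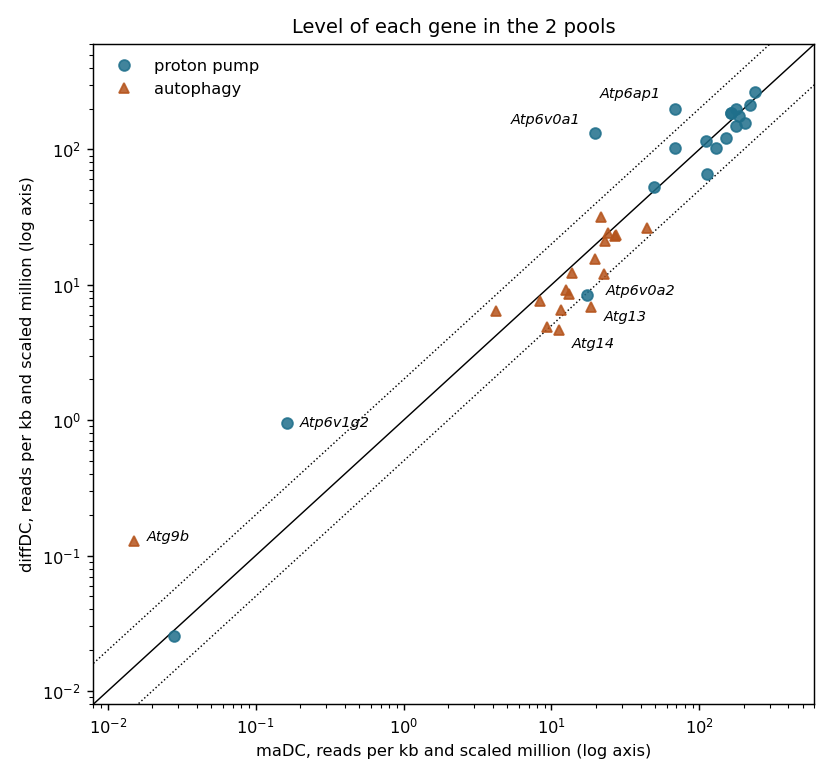
Level of each member in maDC (horizontal) and diffDC (vertical), in reads per kilobase relative to scaled pool size on log axes, with circles for pump genes and triangles for autophagy genes. The solid line marks equal levels and the dotted lines 2-fold. Most pump genes lie to the upper right of the autophagy genes, and Atp6v0a1, at 19.7 in maDC and 131 in diffDC, is farthest above the lines among the abundant genes.

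Promoter sequence was searched for 2 motifs of the E-box type, which basic helix-loop-helix factors such as TFEB, a regulator of lysosomal genes, can bind. These were CACGTG and the longer TCACGTGA, which contains it; both read the same on either strand. The window ran from 250 bases before to 50 after each RefSeq start in GRCm38.p6, and a window was at hand for 13 pump and 16 autophagy genes. CACGTG was found for 4 of the 13 pump genes (30.8%) and 4 of the 16 autophagy genes, against 10.9% of the 12076 genes of the table with a window and 8.09% of all 27025 genes with one. TCACGTGA was found for 3 pump genes (23.1%) and 1 autophagy gene (6.25%), against 1.91% and 1.12%. The 4 sites with TCACGTGA are shown with 10 bases on each side, the motif in capitals, because they are the few members' sites that hold the longer motif.
Atp6v1a: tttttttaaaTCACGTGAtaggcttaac
Atp6v0d1: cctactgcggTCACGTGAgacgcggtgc
Atp6v0e: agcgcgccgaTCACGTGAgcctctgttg
Atg3: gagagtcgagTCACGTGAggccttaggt

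The sites lie at chr16:44139374-44139401 on the minus strand for Atp6v1a, chr8:105566051-105566078 on the minus strand for Atp6v0d1, chr17:26676388-26676415 on the plus strand for Atp6v0e and chr16:45158747-45158774 on the plus strand for Atg3. None of these 4 genes passed, with log2 ratios from -0.25 to 0.18. The remaining genes with CACGTG were Atp6v0b, Atg5, Atg7 and Atg14, of which Atg14 fell. The windows of Atp6v0a1, Atp6ap1 and Atg13 hold neither motif. The Atp6v0a1 window begins at 101010148, after the gene's GENCODE start of 101009452, so bases before that start were not searched. Other windows also lie inside the GENCODE span, as for Atp6v0e, whose span starts at 26663231. A match is a run of letters and does not show binding.

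Of the 18 autophagy genes 1 rose (Atg9b) and 2 fell (Atg13 and Atg14), fewer than the 23.3% and 20.9% of all genes called in those directions. The median log2 ratio was -0.29, and 14 of 18 log2 ratios were below 0. With the authors' library factor 3 genes were higher and none lower, against 32.1% and 15.7% of all genes. The median was then 0.14, and 6 ratios changed sign. Per kilobase, autophagy genes other than Atg9b ranged from 4.21 to 44.0 in maDC and from 4.63 to 31.8 in diffDC. The reads of the 18 genes summed to 0.0880% of the maDC pool and 0.0752% of the diffDC pool, as unscaled shares. With TMM the ratio of these sums was 0.751, or 1.02 with the authors' factor.

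Genes of initiation included both falls, so 2 of these 3 genes fell, against 20.9% of all genes. Atg13 encodes the adaptor that joins the ULK kinases to the rest of the initiation complex. It had 4313 reads in maDC and 2356 in diffDC, 2.70-fold lower (interval 2.57 to 2.84), a log2 ratio of -1.43. Atg14 directs the lipid kinase complex to the site where autophagosomes form. It had 2505 and 1532 reads, 2.41-fold lower (interval 2.27 to 2.58). With the authors' factor these log2 ratios were -0.999 and -0.84, short of the limit, and neither was called. Atg101, which stabilises Atg13, had 1955 and 2910 reads, a log2 ratio of 0.01. The reads of Atg101 for each read of Atg13 went from 0.453 to 1.23, a 2.72-fold change (interval 2.52 to 2.94) that no scaling alters. Both genes lie on minus strands, Atg13 on chromosome 2 from 91674618 to 91710576 and Atg14 on chromosome 14 from 47540893 to 47570649.

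The partners of these proteins carry no Atg symbol and went both ways. Ulk1, the initiating kinase, had 6440 reads in maDC and 3984 in diffDC, 2.39-fold lower (interval 2.29 to 2.48), while its relative Ulk2 had 2187 and 10260, 3.18-fold higher (interval 3.03 to 3.33). Per kilobase Ulk2 rose from 24.9% to 71.6% of the pair, and relative to Ulk1 it gained 7.58-fold (interval 7.14 to 8.06). Rb1cc1, the scaffold FIP200 of the same complex, had a log2 ratio of -0.14. In the lipid kinase complex, Becn1 had 7200 and 10273 reads, a log2 ratio of -0.05, and the catalytic subunit gene Pik3c3 one of -0.26. Uvrag, which takes the place of Atg14 in the endosomal form of that complex, fell 2.27-fold (interval 2.22 to 2.33), so Uvrag and Atg14 kept a similar ratio to each other, 6.15 in maDC and 6.53 in diffDC (change 1.06-fold, interval 0.992 to 1.14). The falls of Ulk1 and Uvrag had log2 ratios of -0.82 and -0.75 with the authors' factor and were then not called.

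Among the 4 genes for membrane supply 1 rose and the others did not pass, against 23.3% of all genes called higher and 20.9% lower. Atg9a encodes the membrane protein whose vesicles seed the autophagosome, and it had 3164 and 3404 reads, a log2 ratio of -0.46. Atg9b rose from 3.79 to 48.1 reads, 8.60-fold (interval 3.08 to 34.4), and still held 1.39% of the summed Atg9 level in diffDC. Its gene runs from 24384181 to 24392143 on chromosome 5, minus strand, and overlaps Nos3 on the other strand over 294 bases, so these few reads could not be assigned with certainty. Atg2a and Atg2b transfer lipids into the growing membrane. Atg2a had 9235 and 7279 reads, a log2 ratio of -0.91, just short of the limit, and Atg2b had 6593 and 8624, a log2 ratio of -0.18. Relative to Atg2a, Atg2b gained 1.66-fold (interval 1.59 to 1.73), and the pair went from 62.3% Atg2a per kilobase to 49.9%.

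None of the 7 conjugation genes passed, against 44.3% of all genes called in either direction. Atg7, the E1-like enzyme that activates both Atg12 and LC3, had 3994 reads in maDC and 8735 in diffDC (log2 ratio 0.57), and went from rank 7 to rank 1 among the 18 autophagy genes by level per kilobase. Atg10, the E2-like enzyme for Atg12, had 442 and 992 reads, a log2 ratio of 0.60. Both passed with the authors' factor, at 1.002 and 1.04. Atg3, the E2-like enzyme for LC3, had 2961 and 3750 reads, a log2 ratio of -0.22, so Atg7 gained 1.73-fold relative to it (interval 1.62 to 1.84). Atg12, the ubiquitin-like tag itself, had 6698 and 5943 reads, a log2 ratio of -0.74, and its partner Atg5 had 3881 and 4885, a log2 ratio of -0.23. Atg16l1 and Atg16l2, forms of the scaffold that places the conjugate on membrane, had log2 ratios of -0.13 and -0.14 and kept a ratio to each other of about 0.31 (change 0.993-fold, interval 0.918 to 1.07). The span of Atg16l2 overlaps that of Fchsd2 on the other strand over 21372 bases, the longest such overlap of any member. The gene model of Atg16l2 holds 2669 bases, so most of this overlap lies outside it. The ratio may still hold some reads of Fchsd2.

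None of the 4 Atg4 protease genes passed, against 44.3% of all genes called in either direction, and all had log2 ratios below 0. Atg4b, known as the most active form on LC3, had 3826 reads in maDC and 4405 in diffDC (log2 ratio -0.36) that turned to 0.08 with the authors' factor. Atg4a had 1868 and 1814 reads, a log2 ratio of -0.60, and Atg4d had 1566 and 1303, a log2 ratio of -0.83. Atg4c had 1860 and 1418 reads and came nearest to the limit at -0.95 (interval -1.05 to -0.85). Atg4b held 36.9% of the summed Atg4 level per kilobase in maDC and 43.7% in diffDC, the largest share in both. Atg4b and Atg4d overlap the genes Thap4 and Kri1 on the other strand over 3365 and 4316 bases, so reads of these pairs could not be assigned with certainty.

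Other genes of the pathway were described from 5 lists holding 99 genes, all measured. Of these, 16 rose and 10 fell, smaller shares than the 23.3% and 20.9% of all genes. The median log2 ratio was 0.07, against 0.03 over all genes. With the authors' factor 31 were higher and 5 lower, against 32.1% and 15.7% of all genes.

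The list of genes that assemble and regulate the pump also held the a3 subunit gene Tcirg1, described above. Of its 12 genes 5 rose and 2 fell, against 23.3% and 20.9% of all genes, and the median log2 ratio was 0.70. The authors' factor gave 7 higher and 2 lower genes, against 32.1% and 15.7% of all genes, and a median of 1.13. Ccdc115 and Vma21 encode factors that help build the Vo sector in the endoplasmic reticulum, and rose 5.42-fold (interval 5.04 to 5.84) and 4.03-fold (interval 3.68 to 4.42). Tmem199, which acts with Ccdc115, did not pass, at a log2 ratio of 0.60. Rogdi and Ncoa7 fell 9.50-fold (interval 8.81 to 10.2) and 5.67-fold (interval 5.46 to 5.90). Rogdi belongs with Dmxl1, Dmxl2 and Wdr7 to the rabconnectin group that loads V1 onto Vo, and Ncoa7 is one of several TLDc-domain proteins that bind V1. Tldc2, another TLDc gene, was listed at 0 in maDC and had 32.9 reads in diffDC, which is at least 7.43-fold higher when 3 reads stand in for the whole maDC pool, with an exact interval reaching down to 5.71-fold. Oxr1, another of the TLDc genes, and Dmxl1 rose 3.83-fold and 2.08-fold, both named after their values were seen.

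Endolysosomal ion channels and exchangers balance the charge moved by the pump or release calcium. Of 12 such genes 4 rose and none fell, against 23.3% and 20.9% of all genes (median log2 ratio 0.61). With the authors' factor 7 were higher and none lower, against 32.1% and 15.7% of all genes, and the median was 1.05. The calcium channel gene Mcoln3 went from 144 to 3576 reads, 16.8-fold higher (interval 14.2 to 20.0). Tpcn1, another cation channel, and the chloride-proton exchanger Clcn5 rose 3.80-fold and 3.59-fold. The fourth, Tmem175, a lysosomal channel named after its value was seen, rose 2.68-fold. Clcn7, the main lysosomal chloride-proton exchanger, and its partner Ostm1 had log2 ratios of -0.15 and 0.37.

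Of 29 genes of the MiT/TFE transcription factors and of mTORC1, the nutrient-sensing kinase complex on the lysosome that restrains both TFEB and autophagy, 3 rose and 1 fell, both smaller shares than the 23.3% and 20.9% of all genes, and the median was 0.39. The authors' factor gave 9 higher genes and 1 lower gene, against 32.1% and 15.7% of all genes, and a median of 0.83. Tfeb had 3435 and 3178 reads, a log2 ratio of -0.67. Tfe3 and Mitf had log2 ratios of 0.39 and 0.52, so these main factors did not pass. Tfec, the family member restricted largely to macrophages, rose 5.26-fold (interval 4.95 to 5.59). Deptor, an inhibitory subunit of mTOR complexes, rose 14.8-fold (interval 12.9 to 16.9), from 228 to 4964 reads. Stroma and macrophage markers both rose in the same pool, and their part in this and other rises was not tested. Mtor itself fell 3.29-fold (interval 3.20 to 3.37), from 18459 to 8297 reads, and was called lower with the authors' factor too, at -1.28. Lamtor2, a subunit of the Ragulator anchor, rose 2.10-fold.

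Of 22 autophagy core genes without an Atg symbol, 1 rose and 4 fell, against 23.3% and 20.9% of all genes, and the median was -0.17. Under the authors' factor 2 genes were higher and none lower, against 32.1% and 15.7% of all genes, and the median was 0.26. Besides Ulk1, Ulk2 and Uvrag, Ambra1, a regulator of the lipid kinase complex, fell 2.23-fold, and Gabarapl1, an LC3 relative named after its value was seen, fell 2.03-fold. Map1lc3b, the LC3 form most used as an autophagosome marker, had 10217 and 16578 reads, a log2 ratio of 0.14.

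The list of autophagy receptors and fusion genes held 24 genes, of which 3 rose and 3 fell, both smaller shares than the 23.3% and 20.9% of all genes, and the median was 0.06. Under the authors' factor 6 genes were higher and 2 lower, against 32.1% and 15.7% of all genes, and the median was 0.49. Sqstm1 encodes p62, which carries ubiquitin-tagged cargo to LC3 and is itself degraded with it. It had 172166 reads in maDC and 52732 in diffDC, 4.82-fold lower (interval 4.78 to 4.87), the most reads in maDC of any member or pathway gene listed. The receptors Optn and Tax1bp1 fell 3.70-fold and 2.64-fold, and Tax1bp1 was just under the limit at -0.96 with the authors' factor. Nbr1, a relative of Sqstm1, had a log2 ratio of -0.23. Retreg1, listed in the table under its older symbol Fam134b, is a receptor for endoplasmic reticulum and rose 3.01-fold. Tecpr1 and Vps33a, which act in tethering and fusing vesicles with the lysosome, rose 2.59-fold and 2.29-fold.

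**Figure D4:**
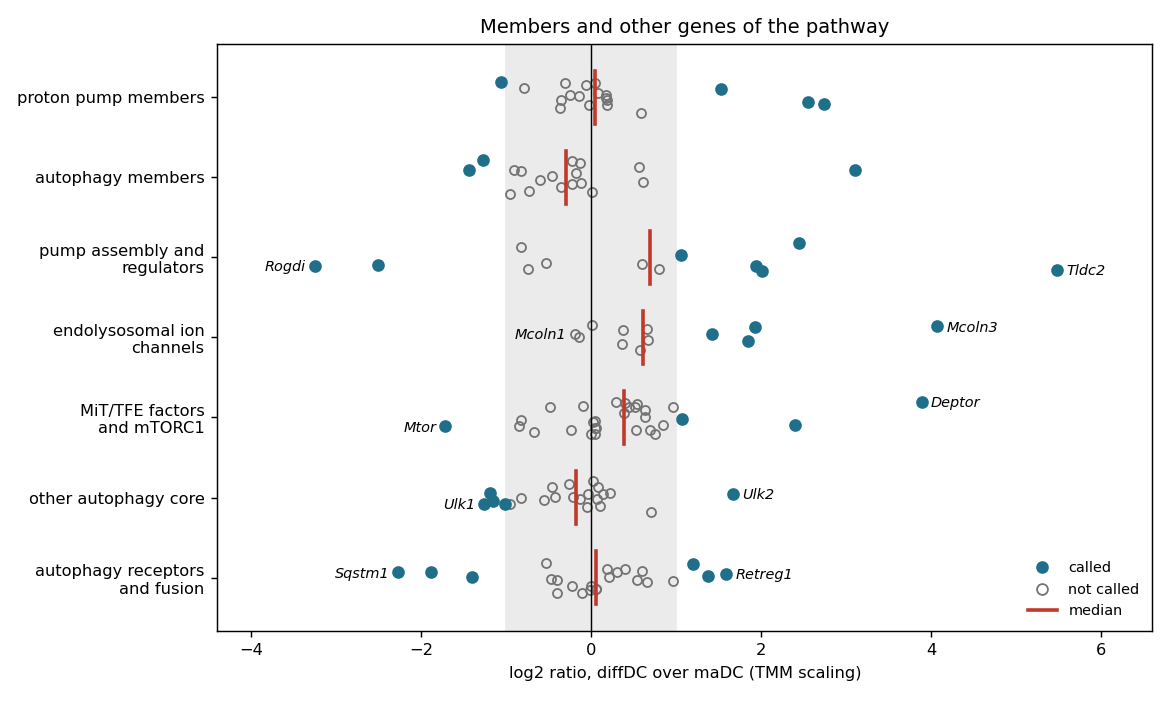
Log2 ratio of diffDC over maDC (horizontal, TMM scaling) for the members and for 5 lists of other pathway genes, 1 point per gene, filled where called, with a red bar at each list's median. The pump and autophagy members lie mostly inside the grey band of under 2-fold, while pump regulators run from Rogdi at -3.25 to Ccdc115 at 2.44, with Tldc2 plotted at 5.48 by setting 0.5 in place of its 0 reads in maDC.

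In the authors' deposited table, 35 of the 37 members had a q-value under 0.05, against 87.2% of all genes. The exceptions in the authors' deposited table were Atg9a and Atp6v0e2. Even Atp6v1b2, at a deposited log2 ratio of 0.07, had a q-value under 0.05. The test behind these q-values is not named, so whether it took spread between libraries into account is not known.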

How the data were processed

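RNA of 3 maDC and 3 diffDC libraries was sequenced on an Illumina HiSeq instrument, per the labels' protocols. The authors' deposited read numbers are expected counts per gene and group: 58.2% of maDC and 57.5% of diffDC values were whole within 0.005. The deposited table also held gene lengths, log2 ratios (a score column here, because 1 cell outside the members was damaged), p-values and q-values, per the file headers. The submitters' processing notes name GRCm38.p4 and mm10; the sources used here do not name the aligner, counter or test.

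Pools were scaled over all 15282 genes with TMM (edgeR 4.0.16, R 4.3.3), a log2 library ratio of 0.563, against 0.377 from totals, 0.585 from DESeq2 1.42.0 size factors and 0.127 behind the authors' deposited log2 ratios. A value of 0.5 replaced 0. Intervals of ratios between genes used a normal approximation on rounded reads. No test across libraries was possible, so the edgeR quasi-likelihood test was not run. Other steps ran in Python 3.11.15 (scipy 1.17.1, numpy 2.4.6, pandas 2.3.3, matplotlib 3.10.9).

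List genes were matched by symbol, then through RefSeq identifiers. Sequences came from RefSeq promoters (GRCm38.p6), coordinates from GENCODE M21. Members and lists were chosen with earlier results of these data known. Every member is named, and from each pathway list the 3 largest called changes in each direction, plus Tcirg1, Tfeb, Tfe3, Mitf, Map1lc3b, Sqstm1, Ulk1 and Becn1. Further list genes named without that rule were chosen after their values were seen.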

Additional observations from a re-analysis of the deposited data

How the results depend on the processing

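No paired analysis was possible because the values are pooled, and for the same reason no library could be left out. With the authors' library factor 0 pump genes were lower and the pump median log2 ratio was 0.48. There 3 autophagy genes were higher and 0 lower (median 0.14), and 31 other pathway genes were higher and 5 lower (median 0.50). That factor called 32.1% of all genes higher and 15.7% lower. With library totals 0 pump genes were lower, and the medians were 0.23 for the pump, -0.11 for autophagy and 0.25 for other pathway genes. A 1.5-fold limit gave 2 pump genes lower, 2 autophagy genes higher and 7 lower, and 30 other pathway genes higher and 17 lower. A 3-fold limit gave 0 pump, 0 autophagy and 5 other pathway genes lower. The shares of all genes called at the 1.5-fold and 3-fold limits were not computed. With genes of at least 5 CPM alone, 0 autophagy genes were higher, because Atg9b drops out. The other counts change by construction, since those settings move all ratios or the limit. The rises of Atp6v0a1, Atp6v1g2 and Atg9b held under every scaling and limit tried, but Atp6v1g2 and Atg9b have under 5 CPM. Median-of-ratios size factors changed no call of a member. Putting 1 in place of 0 touches no member, since none is at 0.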
